A study of Mus musculus with 4 samples.

Results

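The response to doxycycline (dox) was described in the Sca1- fraction of Comma D beta, a mouse line of mammary epithelium. It rests on 2 of the 4 arrays of the study: Sca1- cells cultured with dox at 100 ng/ml for 1 day, and Sca1- cells left untreated. The other 2 arrays hold the Sca1+ cells with and without dox and serve as the comparison. Both fractions were grown in the same serum-containing medium with insulin and EGF, stained for Sca1 and sorted by flow cytometry. Each combination of dox and Sca1 is 1 array, so no value below has a replicate error and no test was made. The labels do not say which gene or construct responds to dox, and the series title names Bcl11b. Comma D beta is an established line, so the arrays describe sorted cultures of 1 line and not mammary tissue. The labels also do not say whether the 2 fractions of a treatment came from 1 flask.

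Sca1 is a surface protein of the Ly6 family that is used to sort mammary cells, and Comma D beta cultures contain cells with and without it. A dividing cell copies its DNA in S phase and then makes the proteins that condense, capture and separate the chromosomes in mitosis. The genes for replication proteins are largely driven by E2F factors, and the genes for mitotic proteins are transcribed later in the cycle. Promoters of the later genes often carry CCAAT boxes and a cell cycle homology region, an element read by the DREAM and MuvB complexes. Since these messages are made mainly in cycling cells, their level in bulk RNA reflects both the share of cycling cells and the message per cell.

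Expression is given as the authors' log2 level of a gene's brightest probe set, and a difference of 1 is 2-fold. All levels under 10 had been set to 10 (3.32 on the log2 scale), so a difference against that floor is a lower bound, written "at least". Of 18194 genes with a named probe set, 12264 passed a filter on low levels. From 44.8% to 48.0% of probe sets lay at the floor on each array, and the array medians of probe sets with a mean linear level of 100 or more lay between 8.20 and 8.24. Actin control probe sets at the 3' end exceeded those at the 5' end by 0.81 on the untreated and by 0.91 on the dox-treated Sca1- array. Bcl11b, a zinc-finger transcription factor, read 6.29 in untreated and 11.99 in dox-treated Sca1- cells, a 52.0-fold difference, against 6.87 and 12.11 in Sca1+ cells. Its 3 other probe sets were not higher with dox: one read 6.21 and 5.38 in Sca1- cells, another read 5.14 and 4.16, and the last lay at the floor on both Sca1- arrays. In Sca1+ cells these 3 probe sets read 7.52, 5.85 and 4.90 untreated and lay at the floor with dox. Their Sca1+ differences are thus lower bounds, and they were larger than those in Sca1- cells. With the mean of all 4 probe sets the Sca1- difference was 0.97, and it lay 1.73 above the Sca1+ difference. Keratins of mammary epithelium differed among themselves in the Sca1- fraction. The basal keratin Krt14 read 11.54 untreated and 11.92 with dox, and the basal Krt5 read 10.77 and 7.63. The luminal Krt18 read 11.37 and 10.58, Krt8 read 9.36 and 7.4, and Krt19 lay at the floor on all arrays. The summed linear level of the 11 named luminal markers was 7847 untreated and 4103 with dox in Sca1- cells, and 4032 and 2443 in Sca1+ cells. That of the 7 basal markers was 5433 and 4523 in Sca1- cells, and 7673 and 4802 in Sca1+ cells. Fibroblast markers summed to 95.4 and 423.6 in Sca1- cells and to 78.9 and 750.3 in Sca1+ cells. The higher sum came from Dcn, which went from the floor to 8.42 in Sca1- cells, while Pdgfra read 5.15 and 4.45 and Col1a1, Col3a1 and Pdgfrb lay at the floor on all arrays. The T-cell list had 5 of its 6 named genes at the floor throughout, and the leukocyte list had 3 of 7 there, with sums of 84.1 and 143.6 in Sca1- cells, where the macrophage marker Cd68 read 3.76 and 6.16. The part of these other cell types in the results below was not tested. Sca1's own gene had no named probe set, so the sort was not checked on its marker.

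In Sca1- cells, 883 genes were 2-fold or more higher with dox (7.2% of the 12264) and 1383 were 2-fold or more lower (11.3%). The same counts in Sca1+ cells were 1039 (8.47%) and 1581 (12.9%). The fractions had 649 higher and 1050 lower genes in common, which left 234 higher and 333 lower genes that passed 2-fold in Sca1- cells alone. Passing a threshold on one side and not on the other can reflect a small difference, so a stricter rule was used to pick out the genes that moved more in Sca1- cells. A gene was counted as beyond Sca1+ when its Sca1- difference was 2-fold or more and exceeded the Sca1+ difference, in its own direction, by a further 2-fold or more. The excess, the Sca1- difference minus the Sca1+ difference, is called the gap below. It chose these genes, so their gaps are given as a description.

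By this rule 71 genes were higher beyond Sca1+ (0.579%) and 209 were lower beyond Sca1+ (1.7%), so 25.4% of these genes were higher. With arrays centred on the median of all probe sets, the counts were 112 higher and 140 lower, and 44.4% were higher. That centring shifted the Sca1+ median over all genes, which was 0.03 in the table as given, to -0.16. In the opposite sense, 145 genes were higher in Sca1+ cells beyond Sca1- (1.18%) and 298 were lower (2.43%). By this rule and in the table as given, more genes thus moved further in the Sca1+ than in the Sca1- fraction. Counts in the opposite sense are not given for other centrings or floors. Of the 209 lower genes, 153 differed by less than 2-fold in Sca1+ cells, 55 were 2-fold or more lower there too, and 1 was 2-fold or more higher. Both Sca1+ arrays lay above the floor for 150 of them. For 54 the Sca1- difference itself is a lower bound. Of the 71 higher genes, 56 differed by less than 2-fold in Sca1+ cells, 14 were 2-fold or more higher there, and both Sca1+ arrays lay above the floor for 60. Genes just inside the rule were Antxr1 and Plagl1, with gaps of 1.01 and 1.03, and Hemk1 and Cenpn, with gaps of -1.01 and -1.02. Just outside it were Snrk and Meis2 at 0.98 each and Slc43a2 and Nrarp at -1.0 and -0.99.

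**Figure D1:**
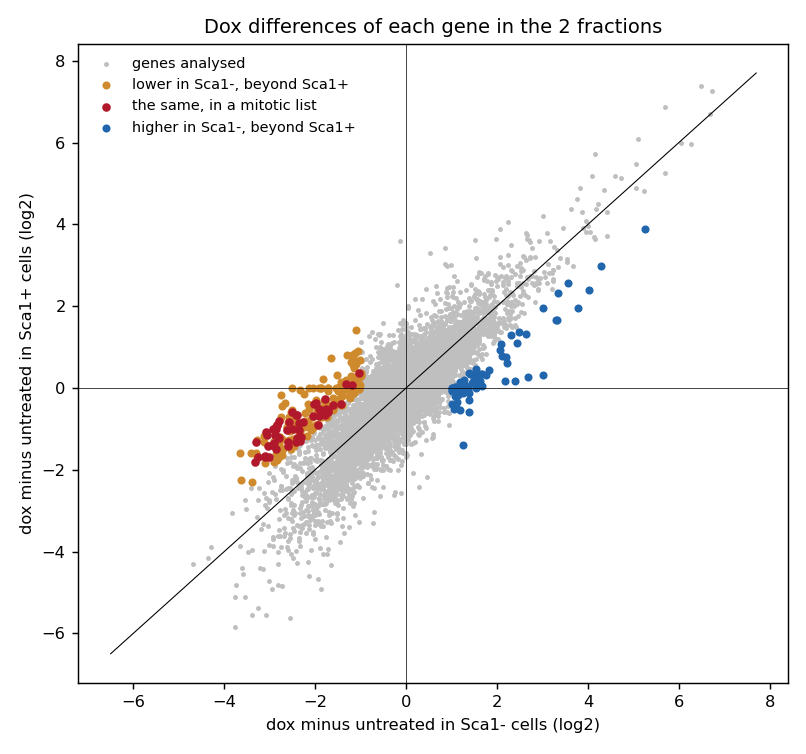
Each point is 1 of the 12264 genes analysed, with its dox minus untreated log2 difference in Sca1- cells on the horizontal axis and in Sca1+ cells on the vertical axis; the diagonal marks equal differences. Most genes follow the diagonal, and the 209 lower genes beyond Sca1+ lie above it on the left, with the 53 from the mitotic lists in red, while the 71 higher genes lie below it on the right.

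The lower genes beyond Sca1+ were rich in mitotic genes. Of 120 analysed members of 5 lists of mitotic genes, 84 were 2-fold or more lower in dox-treated Sca1- cells. That is 70.0% of the members against 11.3% of all genes. Lower beyond Sca1+ were 53, which is 44.2% of the members against 1.7% of all genes. The lists had been drawn up with earlier results of these arrays known, so these shares are not independent evidence. The median member read 7.54 in untreated and 5.88 in dox-treated Sca1- cells, against 8.68 and 7.74 in Sca1+ cells. The median difference was -1.73 in Sca1- cells and -0.84 in Sca1+ cells, beside 0.02 and 0.03 over all genes. With the mean of all probe sets of a gene the median gap was -0.49, and with a floor at a linear level of 32 it was -0.56, against -0.89 as reported. The dox-treated Sca1- cells thus had the lowest median of the 4 arrays, and the untreated Sca1- cells stood already below both Sca1+ arrays. These are bulk levels of sorted cells, and fewer cycling cells in the gate cannot be told apart from less message per cell. Nor can a shift of cells between the gates be told apart from a change of expression within them.

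**Figure D2:**
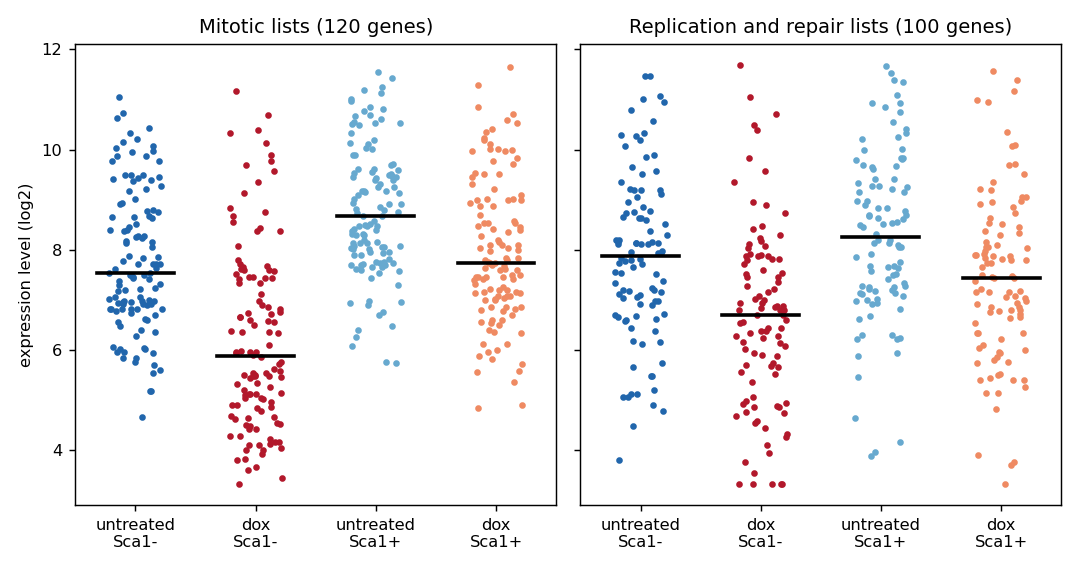
Log2 expression level of each analysed member of the mitotic lists (120 genes, left) and of the replication and repair lists (100 genes, right) on the 4 arrays; black bars are medians over genes. The dox-treated Sca1- array has the lowest median in both panels, 5.88 for mitotic and 6.70 for replication and repair genes.

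Upstream sequences of 4 cell-division genes among the 14 lower genes with the largest gaps are shown first, because CCAAT boxes and the TTTGAA letters of the cell cycle homology region are the features for which late cell-cycle promoters are known. They are from RefSeq on GRCm38.p6, each the 150 bases before the start of a transcript, written 5' to 3' on the gene's strand, with CCAAT (or ATTGG on the other strand) and TTTGAA (or TTCAAA) in capitals. Cdk1 lies on the minus strand (chr10:69352913-69353062), Depdc1a on the plus strand (chr3:159495283-159495432), Bub1 on the minus strand (chr2:127831860-127832009) and Bub1b on the plus strand (chr2:118598061-118598210).
Cdk1: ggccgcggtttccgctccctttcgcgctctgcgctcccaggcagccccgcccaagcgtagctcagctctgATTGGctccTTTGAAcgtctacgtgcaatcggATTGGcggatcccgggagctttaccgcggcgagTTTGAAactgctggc
Depdc1a: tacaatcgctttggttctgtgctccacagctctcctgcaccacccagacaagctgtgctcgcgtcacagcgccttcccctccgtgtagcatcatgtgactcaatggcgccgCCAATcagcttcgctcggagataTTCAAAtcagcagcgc
Bub1: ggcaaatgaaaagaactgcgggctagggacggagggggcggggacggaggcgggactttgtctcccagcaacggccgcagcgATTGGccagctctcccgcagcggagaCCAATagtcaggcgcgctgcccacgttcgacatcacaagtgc
Bub1b: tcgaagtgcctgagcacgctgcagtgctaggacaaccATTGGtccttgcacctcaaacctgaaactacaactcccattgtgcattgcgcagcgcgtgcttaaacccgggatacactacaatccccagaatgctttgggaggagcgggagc
The Cdk1 sequence holds both kinds of letters, each at 2 positions, and its ATTGG and TTTGAA nearest each other are separated by 4 bases. Depdc1a has a CCAAT and a TTCAAA, Bub1 has an ATTGG and a CCAAT, and Bub1b has 1 ATTGG and no TTTGAA in this window. The annotated Depdc1a and Bub1b genes start at 159495414 and 118598202, before the ends of their windows. The TTCAAA of Depdc1a thus lies inside the annotated gene, upstream of the transcript used.

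Across the 250 bases before the start, on either strand, CCAAT occurred in 64.6% of 48 promoters of the mitotic genes that were lower beyond Sca1+ and in 60.6% of 66 promoters of the other mitotic genes. All 32851 promoters in the table held it in 33.8%, and the promoters of the genes analysed in 35.0%. TTTGAA occurred in 29.2% and 30.3% of the 2 mitotic sets, against 16% of all promoters and 10.6% of those of genes analysed. Both together stood in 25% and 19.7%, against 5.55% and 3.83%. The mitotic genes that met the rule and those that did not, many of which also had a gap below 0, had similar shares of each motif. Over all lower genes beyond Sca1+, 48.0% of 202 promoters held CCAAT and 18.3% held TTTGAA, and for the higher genes these shares were 34.8% and 11.6% of 69. A match of these letters is a description of the window and not a binding site.

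Among kinases and cyclins, 18 of 24 were 2-fold or more lower and 12 were lower beyond Sca1+. Such counts, here and in the lists below, are to be read against 11.3% lower and 1.7% lower beyond Sca1+ of all genes. Cdk1, the kinase that drives entry into mitosis, read 9.27 in untreated and 5.96 in dox-treated Sca1- cells, and 10.33 and 9.0 in Sca1+ cells. Its level with dox was 9.91-fold lower in the Sca1- fraction, compared with 2.52-fold in the Sca1+ fraction. Its partner Ccna2, cyclin A2, read 10.21 and 7.34 in Sca1- cells and 10.97 and 9.98 in Sca1+ cells, and a further probe set of Ccna2 read 8.63 and 6.05, then 9.88 and 8.59. Both genes were lowest in dox-treated Sca1- cells. Haspin, a histone H3 kinase, read 6.93 and 3.61 in Sca1- cells and 7.71 and 5.88 in Sca1+ cells. Pbk, a mitotic kinase, read 9.78 and 6.85, against 10.52 and 9.52. The untreated Sca1- level of each of these 4 was above the dox-treated Sca1+ level, and the dox-treated Sca1- level was well below it.

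The spindle checkpoint, which holds back anaphase until all chromosomes are attached, was represented in this list and in that for kinetochores and centromeres, where 24 of 32 members were lower and 17 were lower beyond Sca1+. Bub1, a checkpoint kinase, read 8.28 and 5.20 in Sca1- cells and 9.49 and 8.42 in Sca1+ cells. Bub1b, which encodes BubR1, read 6.81 and 4.01, against 8.06 and 7.26. Mad2l1, the checkpoint protein Mad2, read 9.88 and 7.45, against 10.84 and 10.19. These checkpoint genes were 5.39-fold (Mad2l1) to 8.43-fold (Bub1) lower with dox in the Sca1- fraction, and 1.57-fold to 2.10-fold lower in the Sca1+ fraction. Spc25, a subunit of the Ndc80 complex, read 8.16 and 5.32, against 9.44 and 8.54, and Knl1, the scaffold on which Bub1 docks, read 6.03 and 3.46, against 6.96 and 6.13. The centromere motor Cenpe read 6.90 and 4.86, against 8.14 and 7.75. Members differed among themselves. Ndc80, singled out after its values were seen, was lower to a like extent in both fractions, at -1.93 and -2.05. Zwint, also singled out afterwards, was the 1 member that was 2-fold or more higher with dox, with 7.45 and 8.84 in Sca1- cells and 8.03 and 9.22 in Sca1+ cells.

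Kinesins and spindle factors gave 26 of 30 lower and 16 lower beyond Sca1+. The gap was below 0 in 29 of the 30, against 5970 of all 12264 genes. Nusap1, which bundles spindle microtubules, read 8.92 and 5.86 in Sca1- cells and 10.13 and 8.99 in Sca1+ cells. Spag5, a spindle protein also called astrin, read 6.70 and 3.81, against 8.14 and 7.0. Anln, the actin binder anillin of the cleavage furrow, read 9.78 and 6.75, against 11.14 and 9.72. Kif2c, a microtubule-depolymerizing kinesin, read 7.54 and 5.55 in Sca1- cells and was nearly level in Sca1+ cells at 9.25 and 8.88. Birc5, the chromosomal passenger protein survivin, read 9.50 and 6.67, against 10.67 and 9.77. Depdc1a, a cell-division gene in none of the lists, had one of the largest gaps, with 7.19 and 4.45 in Sca1- cells and 8.59 and 8.14 in Sca1+ cells.

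Members of one complex could differ widely. In the list for the anaphase-promoting complex and separase, 5 of 13 members were lower and 4 were lower beyond Sca1+. These 4 were the activator Cdc20 (9.38 and 7.60 in Sca1- cells, 10.69 and 10.42 in Sca1+ cells), the inhibitor Fbxo5 (8.06 and 5.46, against 9.18 and 7.76), the separase inhibitor Pttg1 (9.87 and 8.67, against 10.78 and 10.84) and the ubiquitin-conjugating enzyme Ube2c (9.21 and 6.81, against 10.50 and 9.84). The core subunits Anapc1, Anapc5 and Cdc27, chosen after their values were seen, differed by 0.18, 0.04 and -0.11 in Sca1- cells. A like split was seen for chromosome structure, where 11 of 21 were lower and 4 were lower beyond Sca1+. Top2a, the topoisomerase of dividing cells, read 10.15 and 7.34 in Sca1- cells and 11.19 and 9.98 in Sca1+ cells. Ncapg, a condensin subunit, Esco2, a cohesin acetyltransferase, and Cdca5, the cohesin protector sororin, differed by -2.51, -3.25 and -2.87 in Sca1- cells and by -0.60, -1.69 and -1.0 in Sca1+ cells. In contrast, Top2b, a topoisomerase related to Top2a, and the cohesin subunit Rad21, both singled out afterwards, differed by -0.05 and 0.05 in Sca1- cells.

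**Figure D3:**
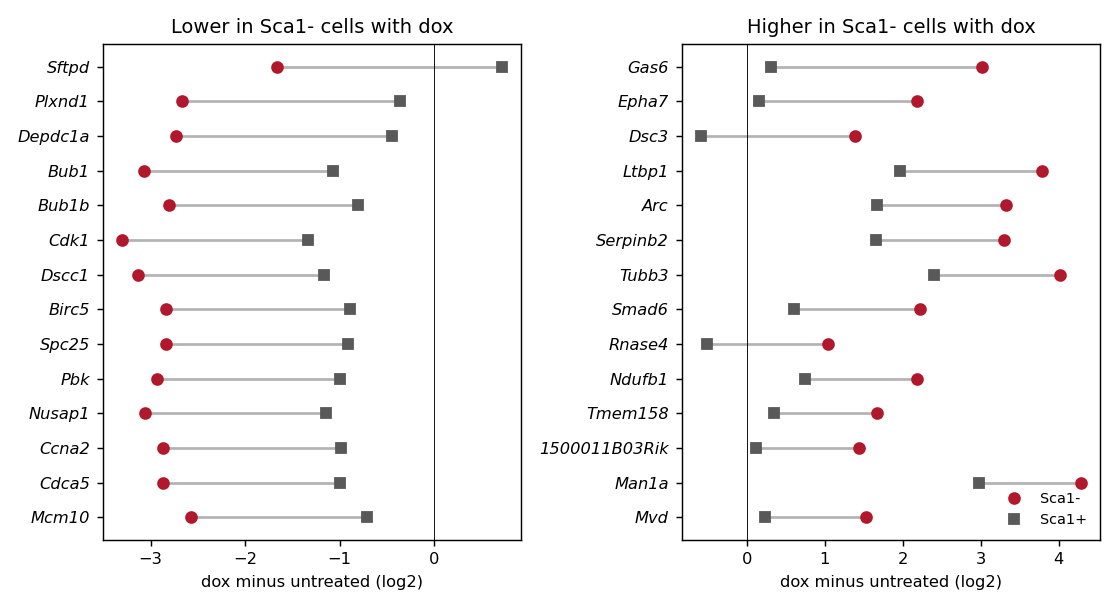
Dox minus untreated log2 difference in Sca1- cells (red circles) and in Sca1+ cells (grey squares) for the 14 lower (left) and the 14 higher genes (right) with the largest gap, among genes with a brighter Sca1- array of 100 or more (linear) and both Sca1+ arrays above the floor. Of the lower genes, Sftpd alone has differences of opposite sign, -1.66 and 0.72, and of the higher genes Dsc3 and Rnase4 do.

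Replication and repair genes were lower too, with smaller gaps. Of 100 analysed members of 4 lists, 56 were 2-fold or more lower in dox-treated than untreated Sca1- cells, 2 were higher and 11 were lower beyond Sca1+, with a median difference of -1.13 in Sca1- cells and -0.82 in Sca1+ cells. Over all genes, 7.2% were higher, 11.3% lower and 1.7% lower beyond Sca1+. For origin licensing and the replication fork, 30 of 43 were lower, 7 of them beyond Sca1+. For DNA repair 15 of 26 were lower and 1 was beyond Sca1+. That 1 gene is 3.85% of its list, so DNA repair does not stand out by this count. Mcm10, which helps to activate the replication fork, read 6.69 and 4.12 in Sca1- cells and 7.25 and 6.54 in Sca1+ cells. Dscc1, a subunit of a clamp loader tied to sister cohesion that is in none of the lists, read 7.45 and 4.32, against 7.78 and 6.61. Both were among the 14 lower genes with the largest gaps, together with the mitotic genes. With the mean of all probe sets, however, Mcm10 had a Sca1- difference of -0.86 and a gap of -0.59, and the gaps of Bub1 and Spc25 were -0.86 and -0.95. The averaged gaps of Bub1b, Dscc1, Nusap1 and Cdca5 were -1.23, -1.07, -1.0 and -1.22. The other probe sets of Mcm10, Dscc1 and Nusap1 lay at or near the floor, with highest levels of 3.40, 3.49 and 4.06. Averaging with them makes a difference smaller by arithmetic. Those of Bub1 and Spc25 were dim too, at 4.15 and 4.45 in untreated Sca1- cells. Another probe set of Bub1b and of Cdca5 reached 8.36 and 7.52. In nucleotide synthesis, where 7 of 19 were lower, Tk1, thymidine kinase, read 9.20 and 5.56 in Sca1- cells and 10.01 and 7.75 in Sca1+ cells. It was 12.5-fold lower in Sca1- cells. Rrm2, a subunit of ribonucleotide reductase, read 11.01 and 7.92, against 11.35 and 9.51. Of 12 genes of histones and histone handling, 4 were lower (33.3%, against 11.3% of all genes) and 2 were higher, with a median of -0.51 in Sca1- and -0.55 in Sca1+ cells, and none was beyond Sca1+.

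A smaller share of the regulators of the cycle was lower. In the E2F and Rb list 7 of 20 were lower, and E2f1, an activating E2F, and E2f8, a repressing one, were lower beyond Sca1+. E2f1 read 5.78 and 4.17 in Sca1- cells and 6.44 and 5.93 in Sca1+ cells, and E2f8 read 7.52 and 4.72, against 8.45 and 6.77. Of 21 G1 cyclins, CDKs and inhibitors, 3 were higher (7.2% of all genes were), 7 were lower (11.3%) and 2 were lower beyond Sca1+ (1.7%). These were Ccne2, cyclin E2, with 7.92 and 4.65 in Sca1- cells against 8.81 and 7.13, and Cdkn2c, the inhibitor p18, with 7.95 and 6.49 against 8.88 and 8.63. Cdkn1a, the inhibitor p21, and the D-type cyclin Ccnd1 were singled out after their values were seen. Cdkn1a differed by 0.78 in Sca1- cells and 0.12 in Sca1+ cells, below the 2-fold rule in both. Ccnd1 was lower in both fractions, by -1.55 in Sca1- cells and by the larger difference of -2.20 in Sca1+ cells. Of 26 genes associated with quiescence, 6 were higher (7.2% of all genes were) and 3 lower (11.3% of all genes were) in Sca1- cells. The medians were 0.25 and 0.21 in the 2 fractions. Beyond Sca1+ was 1 in each direction, against 0.579% higher and 1.7% lower of all genes. The higher one was Gas6. The lower one, Pdk4, read 4.77 and the floor in Sca1- cells. It lay at the floor on both Sca1+ arrays, so its gap was not measured.

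Many lower genes outside the cell cycle started from a higher level in Sca1- than in Sca1+ cells. Sftpd, surfactant protein D, a secreted lectin of the innate defence, read 8.40 in untreated and 6.74 in dox-treated Sca1- cells, and 4.85 and 5.57 in Sca1+ cells. The Sca1- level was 3.16-fold lower with dox and the Sca1+ level 1.65-fold higher. Plxnd1, a receptor for semaphorins, read 7.01 and 4.33, against 4.37 and 4.01. In both cases the untreated Sca1- cells were the high array, and the dox-treated Sca1- level lay nearer to those of Sca1+ cells. Igfbp5, an IGF-binding protein, read 10.12 and 8.86 in Sca1- cells and only 5.40 and 5.20 in Sca1+ cells, so it remained much higher in Sca1- cells with dox. Slc34a2, a phosphate transporter of secretory epithelia, read 6.44 and 3.91, against 4.80 and 4.22, and Tnfsf10, the death ligand TRAIL, read 6.44 and 3.82, against 4.78 and 3.82. Elf3, an epithelial ETS factor, read 5.07 and 3.86 in Sca1- cells and 4.35 and 4.27 in Sca1+ cells. Prom1, the surface protein CD133 used as a luminal marker, read 6.19 and 3.44 in Sca1- cells, while in Sca1+ cells it read 3.49 and lay at the floor with dox. Cldn3, a tight-junction claudin, read 6.54 and 4.03, against 3.87 and the floor, and Pglyrp1, a secreted peptidoglycan-recognition protein, read 5.66 and the floor, against 3.36 and the floor. For these 3, the Sca1+ levels left little room for a difference, and the gap was not measured.

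Further bright genes of this kind lie outside the rule for named genes and were chosen after their values were seen. A high start was not shared by all genes outside the lists. Of the 39 bright lower genes in no cell-cycle list, 19 were 2-fold or more higher in untreated Sca1- than Sca1+ cells. Lower by any amount there were 18. These 18 include the cell-division genes Depdc1a and Dscc1, so the count does not describe genes outside the cell cycle alone. Gabrp, a GABA-receptor subunit of epithelia, read 9.59 and 6.28 in Sca1- cells and 6.55 and 4.96 in Sca1+ cells. Atp6v1b1, a proton-pump subunit of acid-secreting cells, read 9.79 and 7.57, against 5.98 and 5.37. Enpp3, an ectonucleotidase, read 9.63 and 8.02, against 7.31 and 7.05. Each was several-fold higher in untreated Sca1- than Sca1+ cells and remained higher with dox. Cd14, a co-receptor for lipopolysaccharide, read 10.31 and 6.92, against 7.66 and 5.35, and Flt1, a VEGF receptor, read 7.65 and 5.59, against 5.24 and 4.54. The transcription factors Foxi1 (7.63 and 4.34 in Sca1- cells, 4.60 and the floor in Sca1+ cells) and Sox8 (6.98 and 3.33, 4.90 and the floor) were at least 2.42-fold and 2.99-fold lower in Sca1+ cells, so their gaps are not measured. Among luminal genes as a list, 10 of 20 were lower (11.3% of all genes were) and 1 higher (7.2% of all genes were) in Sca1- cells. The medians were -0.93 and -0.70 in the Sca1- and Sca1+ fractions. Of the 20, 2 were lower beyond Sca1+, against 1.7% of all genes.

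Cell-cycle genes and the other lower genes differed in their levels before dox. Genes are called bright here when the brighter Sca1- array had a linear level of 100 or more. Of the 98 bright genes lower beyond Sca1+, 59 were in the 10 cell-cycle lists. All 59 were lower in untreated Sca1- than in untreated Sca1+ cells, 37 of them by 2-fold or more. Given that, the rule itself places all 59 at 2-fold or more lower in Sca1- than Sca1+ cells with dox. Of the other 39, 18 had been lower in untreated Sca1- cells, 7 of them by 2-fold or more, and 19 had been 2-fold or more higher. The 39 are defined by the lists alone, and they include Depdc1a and Dscc1. With dox, 11 of the 39 were 2-fold or more higher in Sca1- cells, 18 were 2-fold or more lower and 10 lay within 2-fold. The gap is also, by arithmetic, the fraction difference with dox minus the fraction difference without it, so any relation between the gap and the untreated difference is partly built in and was not tested. Other probe sets of the same genes were read as well. Of 37 other bright probe sets of 29 of these genes, 35 were also 2-fold or more lower with dox in Sca1- cells, and 21 of these were beyond Sca1+.

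**Figure D4:**
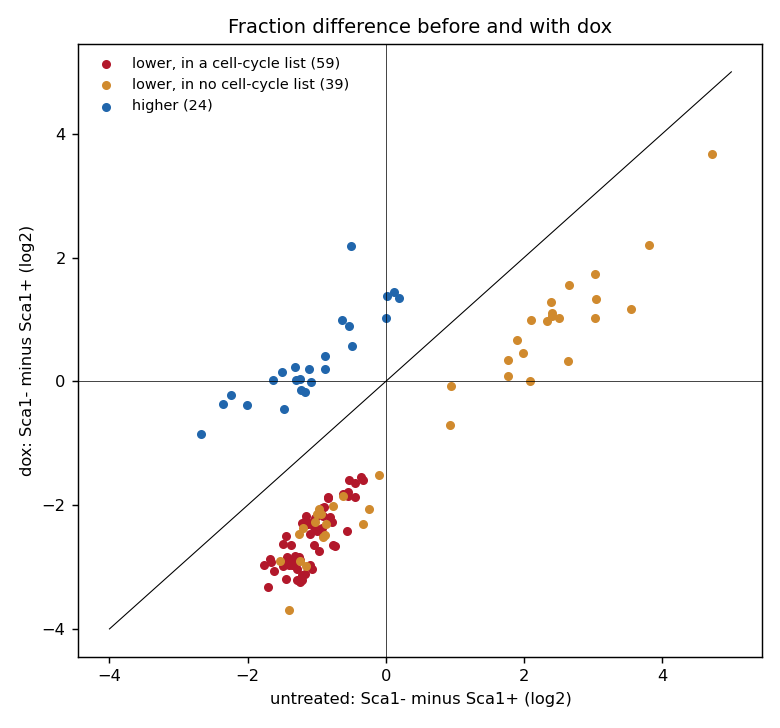
Sca1- minus Sca1+ log2 difference without dox (horizontal) and with dox (vertical) for the bright genes beyond Sca1+; the diagonal marks no gap. The 59 lower cell-cycle genes (red) lie at negative values on the horizontal axis and, by the rule that chose them, below the diagonal, the 39 other lower genes (orange) spread to both sides of 0 on the horizontal axis, and the 24 higher genes (blue) lie above the diagonal by the rule that chose them.

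None of the 71 higher genes beyond Sca1+ was in the 10 cell-cycle lists. These lists hold 240 of the 12264 genes analysed, so a count of 0 is near their share. The higher genes were mixed in role. The largest gap was that of Gas6, the secreted ligand of the TAM receptor kinases, with 6.34 in untreated and 9.35 in dox-treated Sca1- cells, against 6.84 and 7.16 in Sca1+ cells. The dox-treated level was 8.10-fold the untreated one in the Sca1- fraction and 1.25-fold in the Sca1+ fraction. Dox-treated Sca1- cells were thus the 1 high array of the 4 for Gas6. Averaged with its other probe set, which lay at the floor on all arrays, Gas6 differed by 1.51 in Sca1- cells. The receptor gene Axl, chosen after its values were seen, was lower with dox in both fractions, at -2.35 and -3.39. Smad6, an inhibitor of BMP signalling, had a like shape to Gas6, with 5.33 and 7.55 in Sca1- cells against 5.96 and 6.56. The uncharacterized 1500011B03Rik read 5.58 and 7.03, against 5.46 and 5.58, and Ndufb1, a subunit of respiratory complex I, read 4.71 and 6.89, against 5.24 and 5.99. Tagln, the actin binder transgelin, read 4.81 and 6.46, against 5.06 and 5.40. In these genes too the dox-treated Sca1- array was the highest of the 4.

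Other higher genes started lower in Sca1- than Sca1+ cells and ended near them. Epha7, an ephrin receptor, read 5.06 and 7.24 in Sca1- cells and 7.30 and 7.47 in Sca1+ cells, and another probe set read 3.90 and 5.45, against 5.30 and 5.63. Dsc3, a desmosomal cadherin of basal epithelium, read 5.55 and 6.94 in Sca1- cells, and it went from 7.90 to 7.31 in Sca1+ cells. Rnase4, a secreted ribonuclease, read 8.40 and 9.45, against 9.72 and 9.22. For these 3 genes the Sca1+ cells stayed within 2-fold of their untreated level, and the dox-treated fractions differed by less than the untreated ones. Ltbp1, which binds latent TGF-beta in the matrix, read 4.22 and 8.01, against 6.90 and 8.86. Arc, an immediate-early gene, read 3.50 and 6.82, against 5.00 and 6.67, and Serpinb2, a plasminogen-activator inhibitor, read 4.37 and 7.66, against 5.99 and 7.65. Tubb3, a tubulin isotype best known from neurons, read 3.76 and 7.78, against 5.76 and 8.16. These 4 were 2-fold or more higher in both fractions, and the larger Sca1- difference came with a lower untreated level. The untreated Sca1- levels of Arc and Tubb3 lay close to the floor, and with a floor at a linear level of 32 their gaps were 0.15 and 0.38. Man1a, a Golgi mannosidase, read 7.20 and 11.49, against 8.31 and 11.29, and another probe set read 5.47 and 10.55, against 6.42 and 10.32. Tmem158, a membrane protein of Ras-driven senescence, read 6.23 and 7.91, against 7.54 and 7.88. Krt16, a keratin of activated epidermis, read 6.85 and 8.25, against 7.72 and 8.06, and Irs2, an adaptor of the insulin receptor, read 3.41 and 5.49, against 4.56 and 5.48.

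Of the 24 bright higher genes, 20 had been lower in untreated Sca1- than Sca1+ cells, 14 of them by 2-fold or more. With dox, 19 of the 24 lay within 2-fold between the fractions and 5 were 2-fold or more higher in Sca1- cells. These counts hold for the bright genes, within the built-in relation given above. Of all 71 higher genes, 31 had been 2-fold or more lower in untreated Sca1- cells and 40 lay within 2-fold. With dox, 48 of the 71 lay within 2-fold, 21 were 2-fold or more higher in Sca1- cells and 2 were 2-fold or more lower. Several gaps were below 1 when all probe sets of a gene were averaged: 0.74 for Epha7, 0.96 for Dsc3, 0.50 for Ltbp1, 0.10 for Tmem158, 0.79 for 1500011B03Rik and 0.87 for Mvd. The averaged Sca1- differences were 0.67 for Dsc3, 0.68 for Tmem158, 1.11 for Epha7 and 1.26 for Ltbp1. The other probe sets of Ltbp1, Dsc3 and Tmem158 lay at or near the floor, with highest levels of 3.65, 3.44 and 4.11. Averaging with such probe sets makes a difference smaller by arithmetic. Those of 1500011B03Rik and Mvd lay above the floor, with highest levels of 5.45 and 6.34.

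Among the other pathways, cholesterol synthesis differed in sign between the fractions, with small differences. The median of its 17 genes was 0.40 in Sca1- cells and -0.22 in Sca1+ cells. In Sca1- cells 15 of the 17 lay above 0, in Sca1+ cells 5 did, and the gap was above 0 in 16. Over all 12264 genes the gap was above 0 in 6294. Mvd, mevalonate diphosphate decarboxylase, was the 1 member 2-fold or more higher, with 5.21 and 6.75 in Sca1- cells and 6.10 and 6.33 in Sca1+ cells. Idi1, the isopentenyl diphosphate isomerase, read 8.10 and 8.73, against 9.01 and 8.57. Members chosen after their values were seen show the usual size, with Fdps at 0.53 and -0.18, Sqle at 0.40 and -0.20, and Dhcr7, the exception, at 0.48 and 0.66. The median level of the list was 7.80 in untreated and 8.24 in dox-treated Sca1- cells, and 8.20 and 8.24 in Sca1+ cells, so the untreated Sca1- array was the low one. Since 1 of 17 passed 2-fold, against 7.2% of all genes, the list does not stand out by its count.

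Counts in the following lists are to be read against 7.2% higher and 11.3% lower of all genes in Sca1- cells. In basal keratins and p63 the gap was above 0 in 11 of 12 genes, against 6294 of all 12264. The exception, Krt15, had the list's largest Sca1- difference, with 4.69 and 10.39, against the floor and 10.20 in Sca1+ cells. Of the 12 genes, 2 were higher and 3 lower in Sca1- cells. Krt5 had a smaller difference in Sca1- cells, -3.13, than in Sca1+ cells, -4.0. Matrix proteases and inhibitors had 7 of 18 higher and 2 lower, with medians of 0.56 and 0.21. Timp2, an inhibitor of matrix metalloproteinases, was level in Sca1- cells at 9.25 and 9.53 and lower in Sca1+ cells at 9.26 and 8.10. Interferon-stimulated genes were 2-fold or more higher in 16 of 29 cases and lower in 1, with a median of 1.05 in Sca1- cells and 1.37 in Sca1+ cells, and none was beyond Sca1+. The ATF4 and amino-acid response had 7 of 25 lower, with medians of -0.75 and -1.09. None of 20 ribosome biogenesis genes and none of 24 respiratory-chain genes in the lists differed by 2-fold in Sca1- cells; Ndufb1, given above, is not in the respiratory-chain list.

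**Figure D5:**
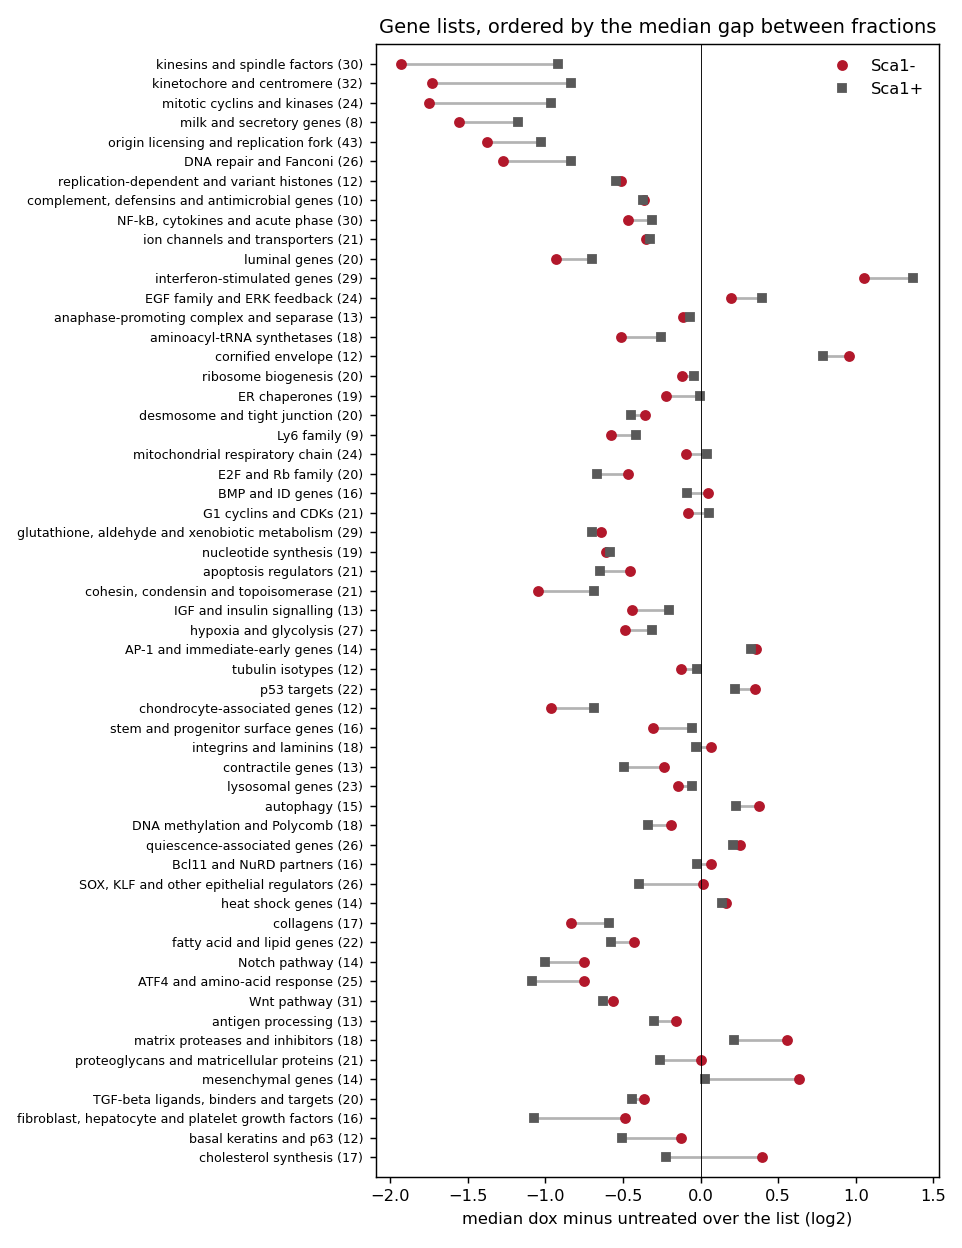
Median dox minus untreated log2 difference in Sca1- cells (red circles) and Sca1+ cells (grey squares) for 57 gene lists, with the number of genes analysed in parentheses, ordered from top to bottom by the median gap over a list's genes. The 3 mitotic lists at the top have Sca1- medians of -1.93, -1.73 and -1.75, and cholesterol synthesis, at the bottom, has medians of 0.40 and -0.22.

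By the counts given first, for the rule of a further 2-fold in the table as given, more genes moved further in Sca1+ than in Sca1- cells. Lcn2, the iron-carrier binding protein lipocalin 2, read 12.03 and 10.09 in Sca1- cells and 9.89 and 5.23 in Sca1+ cells, so it was 3.83-fold lower with dox in one fraction and 25.3-fold lower in the other. Tubb6, a tubulin isotype, read 9.05 and 6.49, against 9.98 and 4.37. Cebpb, a transcription factor of mammary and stress responses, read 11.42 and 9.70, against 10.96 and 7.03. In all 3 the dox-treated Sca1+ array was the lowest of the 4. Gas1, a growth-arrest gene, differed by -2.14 and -4.60, Tgfbi, a TGF-beta-induced matrix protein, by -3.39 and -5.55, Col9a3, a cartilage collagen chain, by -1.38 and -3.55, and Lgr6, a receptor for R-spondins, by -1.26 and -3.40. Of the 6 genes with the largest difference in each direction in Sca1- cells, none was beyond Sca1+. Sprr1a, a cornified-envelope precursor, was 102-fold higher with dox in the Sca1- and 103-fold in the Sca1+ fraction, and Bmper, a BMP-binding protein, was 20.4-fold and 17.8-fold lower. Hp, the acute-phase protein haptoglobin, read 10.55 and 5.85 in Sca1- cells, against 7.63 and the floor in Sca1+ cells, so its Sca1+ difference is a bound and with the floor at 32 its gap was -2.06.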

How the data were processed

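RNA from sorted Sca1- and Sca1+ cells was labelled by an Affymetrix 3' IVT protocol, per the labels, which reads transcripts near their 3' end. The deposited table gives log2 expression levels of 45101 probe sets on 4 arrays. How the authors summarized and scaled the probes, and with which software, is not stated in the labels. Of the probe sets, 34958 had 1 gene symbol in the platform annotation, 932 had several and 9211 were not listed. For each gene the probe set brightest on average was kept, and 12264 genes with a highest array at or above the pooled median (3.63) were analysed. Promoter sequences are from RefSeq on GRCm38.p6.

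Differences of log2 levels were computed with Python 3.11.15, numpy 2.4.6 and pandas 2.3.3, and the code was tested on simulated data. With 1 array a group the number of arrays limits the precision, and no test or error was computed. Named genes are Bcl11b, the 14 with the largest gap in each direction (brighter Sca1- array at a linear level of 100 or more, both Sca1+ arrays above the floor), the 6 with the largest Sca1- differences in each direction, genes 2-fold or more different in opposite directions, and within each of 64 lists the members with the largest gaps or Sca1- differences and any whose direction differed; part of these is given. Other genes are marked as chosen after their values were seen. The members and lists were chosen with earlier results of these data known. Alternatives covered the centring, probe-set choice, filter, floor and fold threshold.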

Additional observations from a re-analysis of the deposited data

Results flagged for a closer look

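Of the genes beyond Sca1+, 20 higher and 37 lower ones had a Sca1+ difference of the other sign. Among the genes of the naming rule, 6 had opposite signs with 2-fold or more in one fraction and 0.5 or more (log2) in the other. These differences were not tested. Sftpd differed by -1.66 in Sca1- cells and by 0.72 in Sca1+ cells, Dsc3 by 1.39 and -0.59, and Rnase4 by 1.05 and -0.50. Sox2, a transcription factor of progenitor cells, read 3.86 untreated and 4.44 with dox in Sca1- cells and 6.09 and 4.97 in Sca1+ cells, with differences of 0.59 and -1.12. Gfra3, the receptor for artemin, differed by at least 1.26 in Sca1- cells and by -1.39 or more in size in Sca1+ cells, with the untreated Sca1- and the dox-treated Sca1+ array at the floor. Srms, a Src-family-like kinase, differed by -1.09 in Sca1- cells and by at least 1.41 in Sca1+ cells, with the untreated Sca1+ array at the floor. Gfra3 and Srms were the 2 genes that were 2-fold or more different in opposite directions.

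Probe sets without a single gene symbol were left out of the comparisons. Of 10143, 3684 passed the filter on low levels, and of these 25 were higher (0.679%) and 47 were lower (1.28%) in Sca1- cells beyond Sca1+.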

How the results depend on the processing

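Of the single-gene values given under the alternatives, no Sca1- difference changed sign, while 6 gaps of at most 0.54 did. Of 854 list medians, 55 changed sign, such as the Sca1- median of basal keratins and p63 from -0.13 to 0.20 and the Ly6 family gap from -0.16 to 0.13 with the mean of all probe sets. No paired analysis was possible because each group has 1 array. For genes 2-fold or more higher and lower in Sca1- cells, and higher and lower beyond Sca1+, the counts were 530, 893, 26 and 106 with a highest array of 100 or more, 2059, 2378, 335 and 516 at 1.5-fold, and 346, 654, 10 and 57 at 3-fold. A floor at a linear level of 32 left 29 higher and 138 lower genes beyond Sca1+, and genes above the floor on all arrays gave 136 lower. Arrays centred on the all-probe-set median gave 112 higher beyond Sca1+. Requiring a Sca1+ difference within 0.5 of 0, an alternative chosen after seeing the data, gave 87 lower. By side of 2-fold, 543 single-gene values kept theirs and 23 crossed, and 774 list medians lay within 0.25 of the reported one and 80 did not. With the floor at 32, the gaps of Mcm10, Artn, Fads3 and Srms were -0.97, 0.40, 0.41 and -0.14, and those of Bub1b, Serpinb2 and Ltbp1 were -1.01, 1.01 and 1.05. The median gap of the mitotic lists ran from -0.96 to -0.49 over the alternatives.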
